A study of Drosophila montana and Drosophila virilis with 10 samples.

Results

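Between cold-acclimated and control flies, 57 genes differed in opposite directions in Drosophila montana and Drosophila virilis. They were chosen by their measured values from 7042 genes with a mean of 10 CPM or more in each species, where CPM is the number of reads of a gene per 1000000 reads on genes, out of 15342 identifiers in the files. A gene was a member when its acclimated and control libraries did not overlap in either species, the direction differed between the species, and the ratio of mean acclimated to mean control CPM, with 1 CPM added to both, was at least 1.3 in 1 species and at most 0.769 in the other. Of the 57, 33 were higher after acclimation in D. montana and lower in D. virilis, and 24 were lower in D. montana and higher in D. virilis. The choice used every library and both acclimation contrasts, so the acclimation values below are a description of the chosen genes and carry no test.

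Messenger RNA was sequenced from pooled whole flies on SOLiD instruments. D. montana of strain 175OJ8 (Oulanka, Finland) gave 3 control and 3 acclimated pools of 10 flies, and D. virilis of strain TOY3F9 (Toyama, Japan) gave 2 control and 2 acclimated pools of 20 flies. Controls stayed at ambient temperature, and the labels give neither the acclimation temperature nor its length. The labels state ages of 21 to 23 days after eclosion in D. montana controls, 24 to 26 days in acclimated D. montana, 27 to 28 days in D. virilis controls and 29 to 30 days in acclimated D. virilis, rising by 1 day with every accession. Acclimation and stated age cannot be told apart, and each species is 1 strain, so species cannot be told apart from strain, pool size or age. In whole flies, fewer cells of a type and less RNA per cell cannot be told apart either.

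Cold acclimation is the gain in cold tolerance that insects show after a period at low, non-lethal temperature. It is known to involve membrane lipids, sugars and other small protective molecules, chaperones and ion balance, and it runs alongside the daily clock and reproductive arrest in flies that overwinter as adults. D. montana is a northern species whose females enter reproductive diapause under short days, and D. virilis is its relative in the same species group with a wide distribution in temperate regions. A gene that differs in opposite directions in such a pair is one for which the species' transcript responses part. The files carry FlyBase identifiers without names, the table of gene names used here holds 0 of them, and none of the 57 can therefore be given a name, function, pathway or sequence here.

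Each D. montana library held 1518027 to 2235850 gene reads and each D. virilis library 650517 to 1316804, so that 1 read was worth 0.447 to 0.659 CPM in D. montana and 0.759 to 1.54 CPM in D. virilis. The D. virilis controls held 650517 and 931704 gene reads and the acclimated libraries 987461 and 1316804, so depth moved with acclimation there. Reads aligned to more than 1 place, which enter no gene, made up 75.6% and 77.6% of the D. virilis control files and 82.7% and 83.4% of the acclimated files, against 18.4% to 23.8% in D. montana. The part of either in the values below was not tested. The labels do not say whether pools came from separate cultures, so the spread between libraries may be technical.

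Opposite differences between acclimated and control flies were less frequent than shared ones. With the same non-overlap and ratio criteria, 0.809% of the 7042 genes met the rule, whereas 258 genes (3.66%) differed in the same direction in both species, 106 higher and 152 lower. With library sizes scaled by the trimmed mean of M-values (TMM), with DESeq2 size factors and with the 20 most abundant genes left out of the totals, the opposite count was 60, 64 and 60 and the shared count 250, 252 and 260. Of 401 genes higher in acclimated D. montana, 33 (8.23%) were lower in acclimated D. virilis, while 23.8% of all 7042 genes were. Of 405 genes lower in acclimated D. montana, 24 (5.93%) were higher in D. virilis, while 10.0% of all genes were. Counted from the D. virilis side, the 33 are 1.97% of 1673 genes lower there, where 5.69% of all genes were higher in acclimated D. montana, and the 24 are 3.40% of 705 genes higher there, where 5.75% of all genes were lower in acclimated D. montana. Without the ratio criterion, 151 genes (2.14%) were apart in opposite directions and 515 (7.31%) in the same direction. In D. virilis, 31% of the 7042 genes were lower and 15.3% higher in both acclimated libraries than in both controls. In D. montana 10.8% were lower and 8.58% higher in all acclimated libraries. Groups of 2 libraries, as in D. virilis, fail to overlap more often than groups of 3 whatever the response. These shares therefore do not compare the extent of the response between the species.

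**Figure D1:**
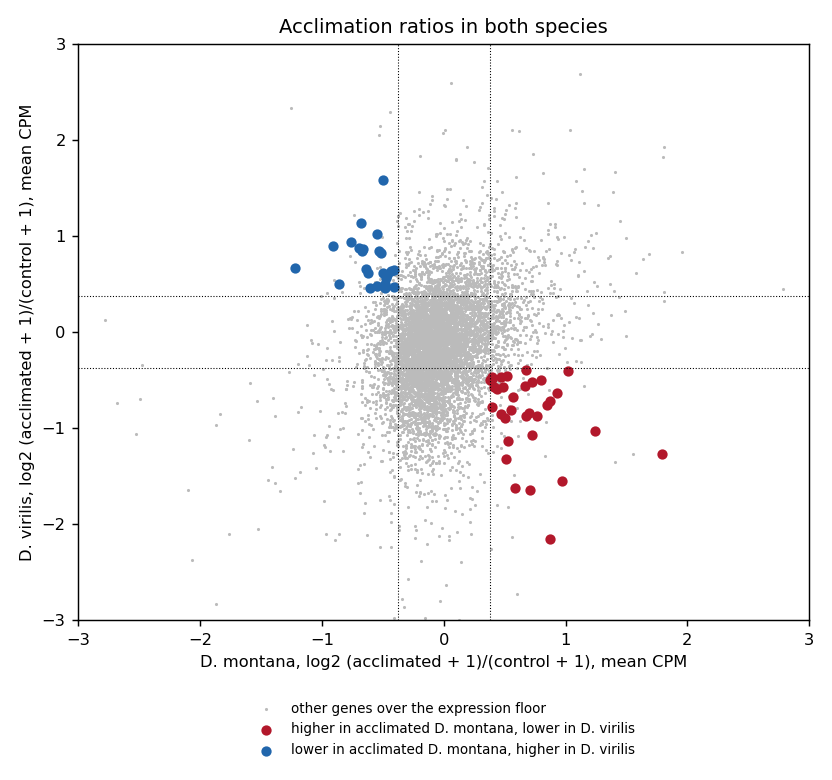
Log2 ratio of mean acclimated to mean control CPM, with 1 CPM added to both, in D. montana (x axis) and D. virilis (y axis) for the 7042 genes, 16 of which lie outside the plotted range of 3 log2 units. Dotted lines mark the ratio criterion, and the 33 red and 24 blue points are the members; grey points in the same corners are genes whose libraries overlapped in at least 1 species.

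Among the 33 genes higher in acclimated D. montana and lower in acclimated D. virilis, the ratio in D. montana ran from 1.304 to 3.46 with a median of 1.59. In D. virilis it ran from 0.225 to 0.763 with a median of 0.591, so the control level was 1.31 to 4.45 times the acclimated level. Over all 7042 genes the medians were 0.957 in D. montana and 0.915 in D. virilis. For 22 of the 33 the change in D. virilis was the larger of the pair on the log2 scale.

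FBgn0197717 ranked first by the weaker of its 2 ratios. In D. montana it was at 14.4, 29.6 and 15.6 CPM in the controls and at 76.9, 78.1 and 59.0 CPM after acclimation. In D. virilis it was at 168 and 174 CPM in the controls and at 80.0 and 60.8 CPM after acclimation. Every acclimated D. montana library lay well above every control, every acclimated D. virilis library lay well below, and the acclimated libraries of both species met at a similar level. The ratio was 3.46 in D. montana, and the D. virilis controls were 2.41 times the acclimated level. In fits of each species by edgeR the log2 fold change was 1.90 (SE 0.25) in D. montana and −1.16 (SE 0.25) in D. virilis. The gap between the nearest control and acclimated libraries was 1.99-fold and 2.09-fold.

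FBgn0208315 was the other member with at least a 2-fold difference in both species. Its D. montana controls stood at 18.5, 16.5 and 19.6 CPM and the acclimated libraries at 50.9, 46.0 and 36.2 CPM. In D. virilis the controls were at 18.4 and 31.1 CPM and the acclimated libraries at 8.10 and 15.2 CPM. The D. montana groups were far apart, whereas the nearer D. virilis control was only 1.22 times the nearer acclimated library. The D. virilis values rest on 12, 29, 8 and 20 reads, and without D. virilis control 2 the weaker of its 2 differences was 1.54-fold.

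FBgn0200462 showed tight D. montana groups, with 12.1, 11.2 and 11.1 CPM in the controls and 25.5, 22.7 and 21.9 CPM after acclimation. D. virilis controls were at 16.9 and 32.2 CPM and acclimated libraries at 10.1 and 5.32 CPM. The D. montana ratio was 1.95 and the D. virilis controls were 2.93 times the acclimated level, on 7 to 30 reads. It stayed past the criterion with any 1 library left out, the weaker difference being at least 1.87-fold.

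FBgn0201082 had the largest D. virilis difference of the class. The D. virilis controls were at 46.1 and 17.2 CPM and the acclimated libraries at 8.10 and 4.56 CPM, a 4.45-fold difference in the means on 30, 16, 8 and 6 reads. Without D. virilis control 1 that difference was 2.48-fold. That of FBgn0205247 was 3.12-fold with all libraries, so the rank rests on control 1. In D. montana the controls were at 49.1, 32.9 and 49.9 CPM and the acclimated libraries at 123, 51.0 and 69.3 CPM. Acclimated D. montana 2 was only 1.02 times the highest control, and without acclimated 1 the ratio dropped from 1.83 to 1.36. It did not meet the rule with TMM library sizes.

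The other leading members of the class differed in level. FBgn0205247 was scarce in D. montana, at 8.66, 5.93 and 13.1 CPM in the controls and 15.5, 14.96 and 16.5 CPM after acclimation, on 9 to 37 reads. In D. virilis the same gene was abundant, at 169 and 221 CPM in the controls and 68.9 and 54.7 CPM after acclimation. The nearest D. virilis libraries were 2.46-fold apart, the widest such gap among the 57 in that species. FBgn0211230 had a like pattern, with 12.1, 25.0 and 31.7 CPM in D. montana controls and 34.9, 32.7 and 48.3 CPM after acclimation. The D. virilis control libraries were at 154 and 146 CPM and acclimated libraries at 81.0 and 60.8 CPM. Its D. montana groups nearly touched, the lowest acclimated library being 1.03 times the highest control.

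FBgn0210632 was the most abundant member of the class by the mean of the 2 species' levels. D. montana controls were at 47.9, 52.7 and 61.4 CPM and acclimated libraries at 107, 111 and 81.4 CPM. Controls of D. virilis were at 217 and 229 CPM and acclimated libraries at 135 and 136 CPM, on 133 to 213 reads. The ratio was 1.83 in D. montana, and D. virilis controls were 1.64 times the acclimated level, and the fitted log2 fold changes were 0.91 (SE 0.18) in D. montana and −0.60 (SE 0.21) in D. virilis. FBgn0210053, the next by that mean and the higher of the pair in D. montana, was at 91.2, 90.2 and 109 CPM and at 141, 125 and 121 CPM in D. montana. In D. virilis it was at 157 and 131 CPM in the controls and 63.8 and 129 CPM after acclimation. Acclimated D. virilis 2 lay just under the lower control, and without acclimated 1 the D. virilis difference was 1.11-fold, and without acclimated 2 it was 2.24-fold, against 1.49-fold with both.

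FBgn0201583 and FBgn0199799 stood for members at similar or lower level in D. virilis. FBgn0201583 was at 66.4, 49.4 and 46.3 CPM in D. montana controls and at 90.2, 106 and 81.4 CPM after acclimation. D. virilis controls were at 75.3 and 50.4 CPM and acclimated libraries at 33.4 and 34.2 CPM. Both its contrasts were clear of overlap, by 1.23-fold in D. montana and 1.48-fold in D. virilis. FBgn0199799 was at 30.6, 31.6 and 37.8 CPM and at 71.4, 47.1 and 63.5 CPM in D. montana. Its D. virilis values of 12.3 and 14.0 CPM against 10.1 and 4.56 CPM rest on 6 to 13 reads, and without acclimated 2 the difference there was 1.27-fold, and without acclimated 1 it was 2.54-fold, against 1.69-fold with both. FBgn0209938 was at 19.1, 17.8 and 25.2 CPM in D. montana controls and at 41.5, 34.9 and 26.4 CPM after acclimation. The D. virilis control libraries were at 23.1 and 20.4 CPM and acclimated libraries at 14.2 and 9.11 CPM, on 15, 19, 14 and 12 reads. Its nearest D. montana libraries were only 1.05-fold apart, and the fitted D. virilis log2 fold change was −0.78 (SE 0.55). The mean levels of the species were about the same in controls and 2.79-fold apart after acclimation.

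The remaining 20 members of the class ranged from 1.31 to 2.02 in the D. montana ratio, and their D. virilis controls were 1.32 to 3.07 times the acclimated level, leaving aside the pair nearest the criterion. That pair was FBgn0204033, with a D. montana ratio of 1.304, and FBgn0199850, whose D. virilis controls were 1.31 times the acclimated level. The nearest genes outside were FBgn0257253, with a D. montana ratio of 0.770 and a D. virilis ratio of 2.15, and FBgn0204425, with ratios of 0.746 and 1.29. FBgn0257253 was at 12.1, 15.2 and 12.6 CPM in D. montana controls, 7.20, 11.6 and 11.2 CPM after acclimation, 407 and 415 CPM in D. virilis controls and 1145 and 622 CPM after acclimation. Its exclusion turned on the D. montana ratio alone.

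**Figure D2:**
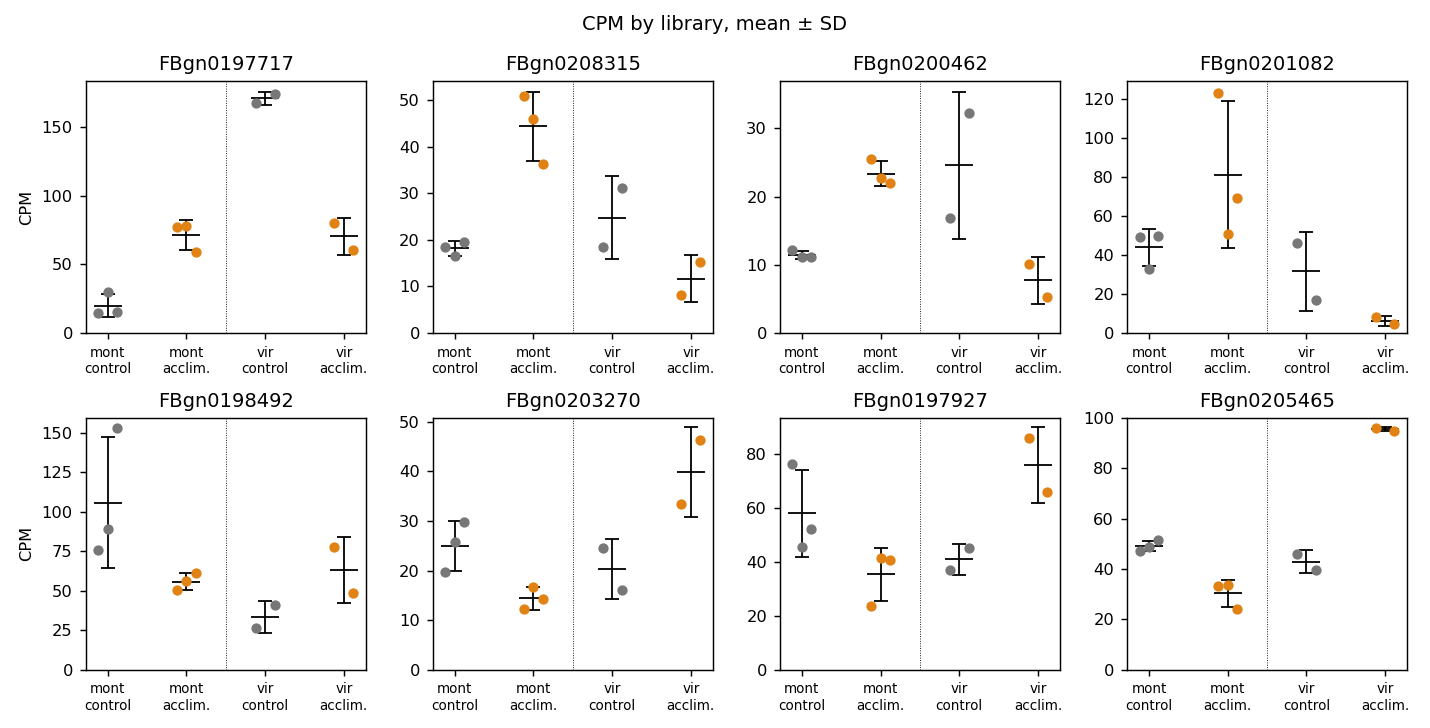
CPM of 8 members in each library (points; grey controls, orange acclimated), with the mean and SD of each group (n = 3 in D. montana, n = 2 in D. virilis) as black bars, on axes that start at 0. The upper row holds the leading 4 genes higher in acclimated D. montana and the lower row the leading 4 lower there; the directions on either side of each dotted line oppose each other.

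The 24 genes lower in acclimated D. montana and higher in acclimated D. virilis showed smaller D. montana differences. The D. montana controls were 1.33 to 2.33 times the acclimated level with a median of 1.46, and the D. virilis ratio ran from 1.37 to 3.01 with a median of 1.57. The 3.01 was that of FBgn0205044, picked out after its values were seen, at 12.3 and 7.51 CPM in D. virilis controls and 47.6 and 15.9 CPM after acclimation. Without acclimated 1 its ratio was 1.55. For 17 of the 24 the D. virilis change was the larger of the pair on the log2 scale, and changes over all tested genes were also larger in D. virilis. No gene of this class reached 2-fold in both species.

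FBgn0198492 led the class by the weaker of its differences. It was at 75.6, 88.9 and 153 CPM in D. montana controls and at 50.4, 56.0 and 61.3 CPM after acclimation. In D. virilis it was at 26.1 and 40.8 CPM in the controls and at 78.0 and 48.6 CPM after acclimation. D. montana control 3 and D. virilis acclimated 1 stood highest in their groups, and without D. virilis acclimated 1 the ratio there was 1.44 against 1.87 with it. Without D. montana control 3 the fitted D. montana log2 fold change was −0.48, against −0.91 with it. The groups were 1.23-fold and 1.19-fold apart at their nearest libraries.

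FBgn0205465 had close replicates in both species. D. montana controls were at 47.3, 48.7 and 51.4 CPM and acclimated libraries at 33.2, 33.8 and 24.2 CPM. Controls of D. virilis were at 46.1 and 39.7 CPM and acclimated libraries at 96.2 and 94.9 CPM. The control levels of the species were alike, and after acclimation D. virilis stood 3.08-fold above D. montana. The log2 fold changes were −0.67 (SE 0.20) in D. montana and 1.28 (SE 0.27) in D. virilis, and the nearest libraries were 1.40-fold and 2.06-fold apart.

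FBgn0203270 was at 19.6, 25.7 and 29.7 CPM in D. montana controls and at 12.2, 16.6 and 14.3 CPM after acclimation. D. virilis controls were at 24.6 and 16.1 CPM and acclimated libraries at 33.4 and 46.3 CPM. FBgn0197927 was at 76.2, 45.5 and 52.4 CPM in D. montana controls and at 23.8, 41.6 and 40.7 CPM after acclimation. Its D. virilis controls were at 36.9 and 45.1 CPM and the acclimated libraries at 86.1 and 66.1 CPM. Respectively, the nearest libraries of these genes were 1.18-fold and 1.09-fold apart in D. montana and 1.36-fold and 1.47-fold in D. virilis, with fewer libraries. The fitted log2 fold changes were −0.78 (SE 0.26) and −0.68 (SE 0.23) in D. montana. In D. virilis they were 1.11 (SE 0.42) and 0.99 (SE 0.32). The D. virilis controls of FBgn0203270 rest on 16 and 15 reads.

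FBgn0207910 had the largest D. montana difference of this class, 2.33-fold. Its D. montana controls were at 46.8, 46.8 and 107 CPM and the acclimated libraries at 23.3, 36.6 and 24.6 CPM. Its D. virilis controls were at 61.5 and 42.9 CPM and the acclimated libraries at 89.1 and 77.5 CPM. Without D. montana control 3 its D. montana log2 ratio was −0.71 against −1.22 with it. That of FBgn0207477 was −0.86 with all libraries, so the rank rests on control 3. Control 3 was the high D. montana library for FBgn0207910, as it was for FBgn0198492 and for FBgn0197980, the most abundant of the 57 in each species. That gene was at 289, 298 and 504 CPM in D. montana controls and at 260, 210 and 219 CPM after acclimation. The D. virilis control libraries were at 166 and 137 CPM and acclimated libraries at 268 and 285 CPM. Without D. montana control 3 its D. montana difference was 1.28-fold, short of the criterion, against 1.58-fold with it, while the D. virilis ratio was 1.82 on 108 to 375 reads.

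FBgn0208556 was at 31.2, 23.7 and 22.7 CPM in D. montana controls and at 17.2, 16.1 and 18.8 CPM after acclimation. In D. virilis it was at 27.7 and 25.8 CPM and at 67.9 and 42.5 CPM, a ratio of 2.03. FBgn0205062, the next most abundant of the class, was at 67.0, 73.8 and 86.1 CPM and at 62.6, 39.3 and 60.8 CPM in D. montana, and at 81.5 and 80.5 CPM and 99.2 and 140 CPM in D. virilis. Its D. montana controls stood only 1.07-fold clear of the acclimated libraries at the nearest point.

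The other 3 leading genes of the class had few reads. FBgn0201589, FBgn0199297 and FBgn0207476 had D. montana controls 1.59, 1.56 and 1.54 times the acclimated level and D. virilis ratios of 1.79, 1.58 and 1.53. Their lowest D. virilis libraries held 8, 10 and 15 reads. For FBgn0199297, without D. virilis acclimated 1 the ratio there was 1.08. The remaining 13 genes of the class had D. montana controls 1.33 to 1.82 times the acclimated level and D. virilis ratios of 1.37 to 3.01. FBgn0207476 and FBgn0207477 are consecutive identifiers, FBgn0207908 and FBgn0207910 are 2 apart, and all 4 belong to this class. Whether such identifiers are neighbours in the genome is not given in the sources used here, and the pairs were picked out after their values were seen.

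**Figure D3:**
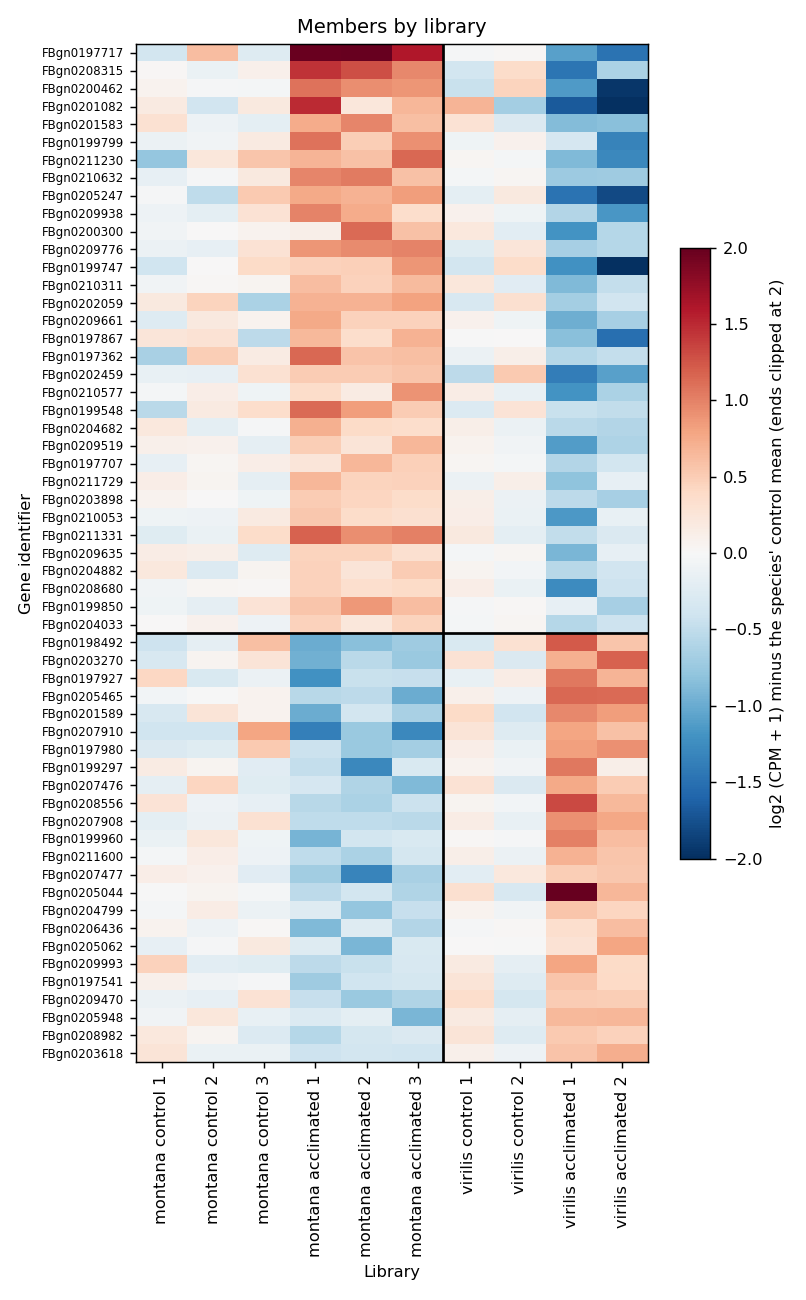
Log2 (CPM + 1) of the 57 members (rows, by class and then by the weaker of the 2 differences) in the 10 libraries (columns), minus the mean of the same species' controls; the colour scale is clipped at 2 log2 units. The horizontal line parts the 33 genes from the 24, the vertical line the species, and the acclimated libraries of D. montana and D. virilis carry opposite colours in every row.

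Together the members took a small share of the gene reads. The 33 genes summed to 1008, 1071 and 1106 CPM in D. montana controls and to 1834, 1648 and 1625 CPM after acclimation, and to 2324 and 2440 CPM in D. virilis controls and 1266 and 1400 CPM after acclimation. The 24 genes summed to 1175, 1171 and 1484 CPM and to 822, 798 and 827 CPM in D. montana, and to 1055 and 882 CPM and 1692 and 1565 CPM in D. virilis. These sums differ between groups by the choice of members. Both classes together came to 0.218% to 0.266% of gene reads in any D. montana library and 0.296% to 0.338% in any D. virilis library.

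The members lay mostly in the lower part of the expression range. By the mean of the 2 species' mean levels, 28 of the 57 were under 39.6 CPM, 24 between 39.6 and 85.8 CPM and 5 above 85.8 CPM, where the same bounds part all 7042 genes into equal groups of 2347, 2347 and 2348. Their median level was 31.0 CPM in D. montana against 58.9 CPM for all 7042 genes, and 44.7 CPM against 49.6 CPM in D. virilis. The highest species mean of any member was 297 CPM, for FBgn0197980 in D. montana, whereas the 7042 genes reached 16452 CPM. The median biological coefficient of variation was 14.3% against 14.0% in D. montana and 22.4% against 22.8% in D. virilis. Since edgeR draws each gene's estimate towards those of other genes, near-equal medians do not show a like spread between replicates. The rule's demand that libraries not overlap bears on both level and spread, so neither is a finding about the genes.

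At these levels counting error was large. All 10 libraries held at least 20 reads for 30 of the 57 genes, against 4610 of the 7042 genes. The lowest library of any member held 5 reads. When each library's CPM was given an exact Poisson 95% interval, which covers counting error only, all control and acclimated intervals stayed apart for 2 of the 57 in D. montana and 7 in D. virilis, against 1.49% and 4.77% of the 7042 genes; the rule used these contrasts, and nothing is read from the shares. At the nearest libraries the groups were 1.02-fold to 1.99-fold apart in D. montana, with a median of 1.14, and 1.01-fold to 2.46-fold apart in D. virilis, with a median of 1.3. The nearest libraries were at least 1.3-fold apart in both species for 4 members. The same count over all 7042 genes was not made, and the rule used these contrasts, so nothing is read from it.

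In edgeR's quasi-likelihood fits over all genes (Benjamini-Hochberg adjusted p under 0.05), 8 of the 57 were called in D. montana, where 1.67% of 9315 tested genes were. All 8 rose, as did 1.16% of the tested genes, namely FBgn0197717, FBgn0208315, FBgn0200462, FBgn0201583, FBgn0199799, FBgn0210632, FBgn0209776 and FBgn0211331. In D. virilis edgeR called 0 of the 57, where 0.312% of 7692 genes were called. An unadjusted p under 0.05 was found there by edgeR for 23, where 12.8% of tested genes had one. DESeq2's Wald test called 2 of the 57 in D. virilis (1.12% of tested genes) and limma-voom 1 (0.676%). The difference in response, fitted over all 10 libraries, was called for 4 of the 57, where 0.224% of 9811 genes were. It was more positive in D. montana for 3 of them, against 0.143% of tested genes, and more positive in D. virilis for 1, against 0.0815%. These contrasts are those that chose the members, so nothing is read from the shares. The number called in D. montana was 2 without control 2 (0.75% of all tested genes called), 2 without acclimated 1 (1.16%), 4 without acclimated 2 (1.06%) and 4 without acclimated 3 (1.19%). For the difference in response it was 2 without D. montana control 2 (0.161%), acclimated 1 (0.176%) or acclimated 2 (0.145%) and 1 without D. virilis control 2 (0.161%). Without D. virilis acclimated 2 it was 15, and calls over all genes were then 194 of 10596 (1.83%).

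The 4 genes called for the difference were FBgn0197717, FBgn0210632, FBgn0205247 and FBgn0205465. The log2 fold change in D. montana minus that in D. virilis was 3.02 (SE 0.38), 1.47 (SE 0.28), 2.27 (SE 0.41) and −1.99 (SE 0.32) respectively. FBgn0205247 had log2 fold changes of 0.76 (SE 0.32) in D. montana and −1.55 (SE 0.27) in D. virilis, so most of its difference lay in D. virilis. Over the 33 genes the fitted differences ran from 0.74 to 3.03 with a median of 1.32, and over the 24 from −2.34 to −1.04 with a median of −1.49. The median over all 9811 tested genes was 0.02. The median SE of a member's log2 fold change was 0.24 in D. montana and 0.35 in D. virilis.

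**Figure D4:**
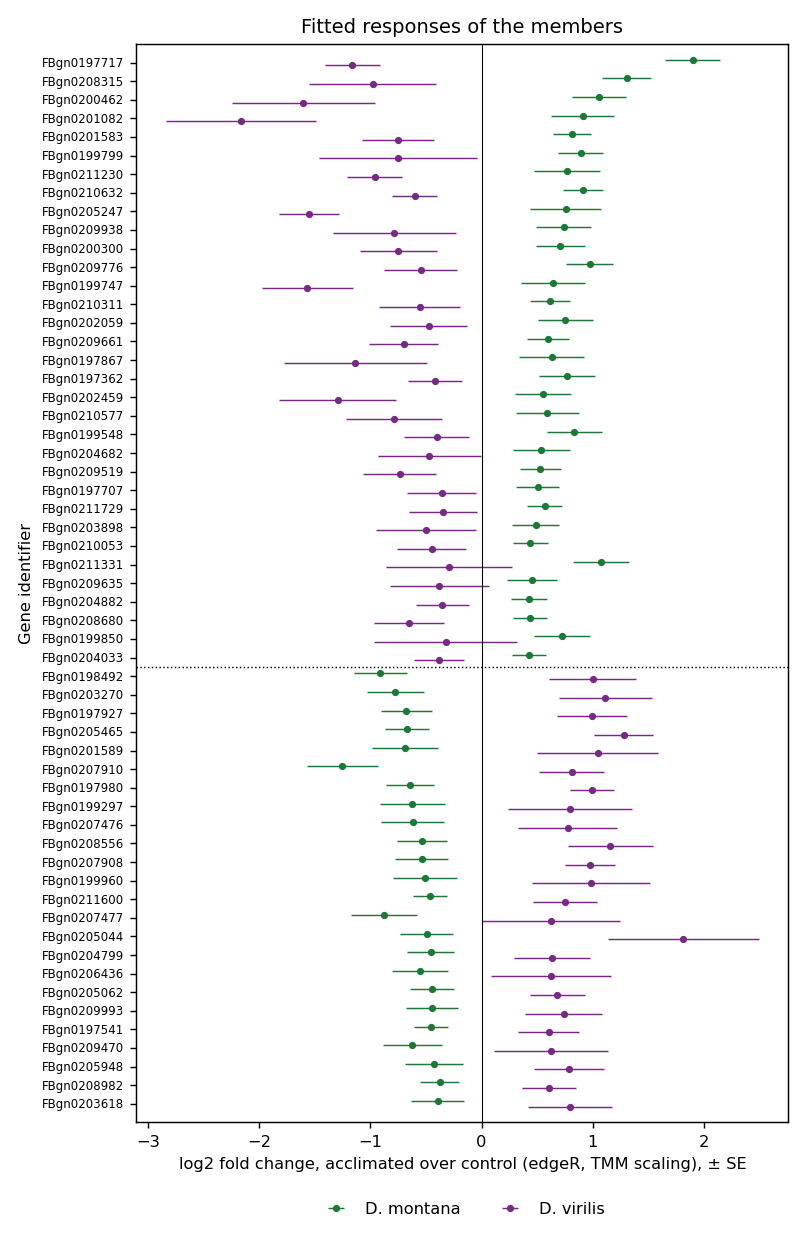
Log2 fold change of acclimated over control flies for the 57 members, fitted by edgeR in D. montana (green) and D. virilis (purple), with bars of 1 SE; rows are in the order of the class and of the weaker difference. The 33 genes above the dotted line have D. montana values above 0 and D. virilis values below 0, and the 24 below it the reverse, with wider bars in D. virilis.

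The level of each species in control and acclimated flies is given as a description. The rule used the same libraries, and a rise in 1 species with a drop in the other favours a low start in the first and a high start in the second, so the shares below follow partly from the choice of members. Of the 33 genes, 30 had a higher mean in D. virilis controls than in D. montana controls, against 48.2% of the 7042 genes, and in 26 of them every D. virilis control lay above every D. montana control, against 30.5%. After acclimation 8 of the 33 were higher in D. virilis, against 43.5% of all genes, and in 20 every acclimated D. montana library lay above every acclimated D. virilis library, against 41.1%. FBgn0197717 went from 8.22-fold higher in D. virilis controls to 0.986 times the D. montana level after acclimation, FBgn0205247 from 19.2-fold to 3.77-fold, FBgn0211230 from 6.30-fold to 1.81-fold and FBgn0210632 from 4.07-fold to 1.35-fold. FBgn0201082 went the other way, from 1.38-fold higher in D. montana controls to 11.2-fold higher in acclimated D. montana.

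Of the 24 genes, 8 had the higher control mean in D. virilis and 24 the higher acclimated mean there. In 12 every D. montana control lay above every D. virilis control, against 36% of the 7042 genes. In 22 of them every acclimated D. virilis library lay above every acclimated D. montana library, against 27.9% of the 7042 genes. FBgn0198492 went from 3.10-fold higher in D. montana controls to 1.13-fold higher in acclimated D. virilis, and FBgn0197980 from 2.39-fold higher in D. montana to 1.20-fold higher in D. virilis.

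The order of the species turned between control and acclimated flies for 38 of the 57, against 17.1% of the 7042 genes. The gap between the species narrowed after acclimation for 20 of the 33 and for 6 of the 24, and for 42.7% of all genes. Since the rule fixed the direction of change in both species, a turn of the order is favoured by the choice of members and was not tested. Levels are CPM of the same gene in libraries of different species, where species cannot be told apart from how well its reads match the annotation.

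**Figure D5:**
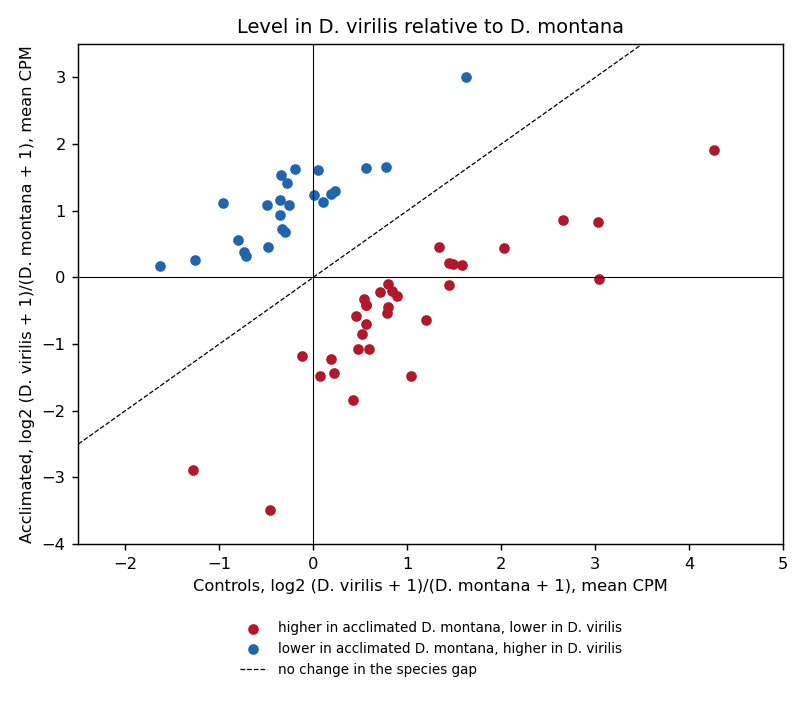
Level in D. virilis relative to D. montana, as the log2 ratio of mean CPM with 1 CPM added, in control flies (x axis) and acclimated flies (y axis) for the 57 members; the dashed line marks an unchanged gap. Red points, the 33 genes, lie under the line and mostly right of 0 in controls; blue points, the 24 genes, lie above it, and all 24 are above 0 after acclimation.

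The split of directions depended on how the libraries of both species were scaled. With TMM-scaled library sizes 60 genes met the rule, 25 of them (41.7%) higher in acclimated D. montana, against 33 of 57 (57.9%) with plain CPM, and 41 of the 57 were kept. Among the 16 that were not were FBgn0201082, FBgn0211230, FBgn0209938, FBgn0210053 and FBgn0199850 of the first class and FBgn0201589 and FBgn0205062 of the second. With DESeq2 size factors 64 genes met it, 26 of them (40.6%) higher in D. montana, and 43 of the 57 were kept. These scalings moved the median log2 ratio of all genes up by 0.12 and 0.13 in D. virilis and by 0.03 in D. montana under each, and neither species was rescaled alone. No member changed sign in either species under TMM, DESeq2 size factors or library sizes without the 20 most abundant genes. The ratio criterion had already kept members further from 0 than the scalings moved the median log2 ratio in either species, so nothing is read from this. A set of 21 members met the rule under those 3 scalings and with any 1 library left out, 13 higher in D. montana and 8 lower. It holds FBgn0197717, FBgn0208315, FBgn0200462, FBgn0201583, FBgn0210632 and FBgn0205247 of the first class, and FBgn0198492, FBgn0203270, FBgn0197927, FBgn0205465, FBgn0207910 and FBgn0208556 of the second, among the genes given by library above. Groups that are apart stay apart when a library is left out. Only the ratio and the expression floor could fail there, so nothing is read from the set.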

How the data were processed

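Each deposited file holds unnormalised counts of reads by gene identifier for 1 library. The counting tool was HTSeq according to the submitters' processing notes; no aligner, build, annotation or counting option is given in the sources used here. The 5 counter lines that name no gene were left out. CPM is the count times 1000000 over the sum of gene rows, and levels per length were not used. Groups came from sample titles. Fits used edgeR 4.0.16 in R 4.3.3 on the counts (quasi-likelihood F-test, TMM scaling, default expression filter, 156, 24 and 22 genes called in D. montana, D. virilis and for the difference), each species alone and the difference in a fit of 10 libraries. DESeq2 1.42.0 and limma-voom (limma 3.58.1) were alternatives. SE is the unshrunken log2 fold change over the square root of F. Scripts were tested on simulated data.

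The members and lists were chosen with earlier results of these data known. Described by library or ratio were the 10 genes of each class with the largest weaker difference, the 2 most abundant of each class, those called for the difference, and the 2 members and 2 other genes nearest the criterion. Gene lists by function and cell markers were not usable without names. Same-numbered libraries did not deviate together (correlation −0.30 to −0.18 in D. montana and −0.01 in D. virilis), so replicate numbers were not treated as pairs. A count of 0 allows 1.34 to 1.98 CPM in D. montana and 2.28 to 4.61 CPM in D. virilis (3 counts, counting error only).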

Additional observations from a re-analysis of the deposited data

Results flagged for a closer look

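The fitted difference in response to acclimation between the species was past the threshold for 4 members. The members were chosen on the same contrasts in the same libraries, so this is a description of chosen genes and supports nothing. The log2 difference, D. montana minus D. virilis, was 3.02 for FBgn0197717, 1.47 for FBgn0210632, 2.27 for FBgn0205247 and −1.99 for FBgn0205465. Every library of 1 species moved one way and every library of the other the opposite way in all 57 members, which is the rule itself; for the set as a whole the difference was not tested.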

How the results depend on the processing

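The count of genes meeting the rule was 57 with plain CPM and stayed within 1.5 times of it under the 3 other scalings and with pseudocounts of 0.1 and 5. It was 151 with no ratio criterion, 21 at 1.5 and 2 at 2, and 133 and 28 with expression floors of 1 and 25 CPM. With 1 library left out it ran from 70 to 139. Fewer libraries overlap less often, but the count also depended on which library was left out. It was 76 without D. virilis acclimated 1 and 139 without acclimated 2. The cause was not tested. It passed 1.5 times without D. montana control 3 (111) and without D. virilis control 1 (102), control 2 (88) and acclimated 2 (139).

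In edgeR without an expression filter, 248 genes were called in D. montana, 1.69% of 14680 (11 members). In D. virilis 398 were called, 3.05% of 13038 (9 members), and for the difference 80, 0.543% of 14741 (16 members). DESeq2's Wald test called 86 genes in D. virilis (1.12%, 2 members) and 56 for the difference (0.571%, 13 members). With limma-voom these calls were 52 (0.676%, 1 member) and 9 (0.0917%, 2 members). Members were chosen on these contrasts, so nothing is read from their counts. With 1 library left out, genes called ran from 72 to 285 in D. montana, 4 to 214 in D. virilis and 14 to 194 for the difference, and members called from 2 to 8, 0 to 3 and 1 to 15. Where this left 1 library in a group, that library is assumed to vary like the others. The causes were not tested.

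With the replicate number as a block, 155 genes were called in D. montana (1.66%, 8 members) and 42 in D. virilis (0.546%, 0 members). For the difference 17 were called (0.173%, 3 members). The libraries share only a number. No log2 fold change of the 24 members in the fits changed sign in any alternative. The members were chosen for non-overlapping libraries and the ratio criterion in both species. Their signs were thus nearly fixed by the choice, and nothing is read from this.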
